A study of Mus musculus with 52 samples.

Results

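The promoters of the cyclin-dependent kinase (CDK) inhibitors, of the p53 gene and its main antagonist, and of Rb1 were examined for chromatin accessibility in mouse embryonic stem cells (mESCs) that lose parts of the KDM2 proteins. The members were all promoter windows whose RefSeq transcript maps to Cdkn1a, Cdkn1b, Cdkn2a, Cdkn2b, Cdkn2c, Cdkn2d, Trp53, Mdm2 or Rb1. This gave 11 windows of 9 genes among 20633 promoter windows of 19237 gene symbols, with 2 windows each for Cdkn2a and Cdkn1a. Accessibility was measured by ATAC-seq, in which the Tn5 transposase cuts and tags open DNA, and was calibrated with a fixed number of Drosophila SG4 cells added to each sample.

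Each of the 4 lines carries a tamoxifen-inducible Cre recombinase and loxP-flanked exons, and was compared with and without 800 nM 4-hydroxytamoxifen for 96 h. Kdm2a/b-JmjC fl/fl cells lose the exons of the JmjC demethylase domain of both Kdm2a and Kdm2b, and with them the long protein isoforms, while short isoforms remain. In the CXXC lines the excised exon encodes the ZF-CxxC domain, which binds unmethylated CpG dinucleotides. It is lost from Kdm2b alone in Kdm2b-CXXC fl/fl cells, from Kdm2a alone in cells called Kdm2a-CXXC fl/fl, and from both genes when the genotype is Kdm2a/b-CXXC fl/fl. Each condition had 3 libraries, or 4 in the Kdm2a/b-CXXC line. The Kdm2a/b-JmjC mESCs were derived from mice carrying ROSA26-CreErt2, the Kdm2a-CXXC line was edited from Rosa26::CreERT2 mESCs, and the Kdm2a/b-CXXC line was edited from the Kdm2b-CXXC mESCs. The Kdm2a-CXXC and Kdm2a/b-CXXC lines were each grown from an isolated clone. No library came from cells given tamoxifen without floxed Kdm2 alleles, so tamoxifen with active Cre and loss of the KDM2 domains cannot be told apart here. The windows lie at promoters and not at the deleted exons, so they provide no check of the deletion.

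The INK4 proteins (p16Ink4a, p15Ink4b, p18Ink4c and p19Ink4d) bind CDK4 and CDK6 and keep them from phosphorylating RB, whereas the CIP/KIP proteins p21 and p27 act mainly on cyclin E and cyclin A complexes with CDK2. Cdkn2a also encodes Arf from a separate promoter and reading frame, and Arf holds back MDM2, the ubiquitin ligase that degrades p53. The Ink4/Arf locus is a classical Polycomb target, and in fibroblasts KDM2B is known to repress it. Serum-grown mESCs have a short G1 phase and express little of most INK4 proteins.

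The sequence upstream of 5 of these promoters is shown because they make up the Ink4/Arf/Ink4b locus and the 2 start sites of Cdkn1a. Each line holds the 250 bases before the RefSeq transcription start on the GRCm38.p6 build, 5′ to 3′ on the strand of the gene, with CpG dinucleotides in capitals.
Cdkn2a, Ink4a start, chr4:89282193-89282442, minus strand: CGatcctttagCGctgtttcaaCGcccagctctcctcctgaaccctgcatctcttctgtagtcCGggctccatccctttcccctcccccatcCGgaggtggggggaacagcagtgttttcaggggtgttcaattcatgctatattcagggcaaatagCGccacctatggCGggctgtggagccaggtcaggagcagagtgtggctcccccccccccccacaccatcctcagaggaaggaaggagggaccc
Cdkn2a, Arf start, chr4:89294620-89294869, minus strand: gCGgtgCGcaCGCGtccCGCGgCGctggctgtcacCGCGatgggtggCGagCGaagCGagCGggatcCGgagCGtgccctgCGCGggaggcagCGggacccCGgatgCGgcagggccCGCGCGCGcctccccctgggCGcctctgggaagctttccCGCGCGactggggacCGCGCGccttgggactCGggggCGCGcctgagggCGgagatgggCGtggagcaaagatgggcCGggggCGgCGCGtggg
Cdkn2b, chr4:89311033-89311282, minus strand: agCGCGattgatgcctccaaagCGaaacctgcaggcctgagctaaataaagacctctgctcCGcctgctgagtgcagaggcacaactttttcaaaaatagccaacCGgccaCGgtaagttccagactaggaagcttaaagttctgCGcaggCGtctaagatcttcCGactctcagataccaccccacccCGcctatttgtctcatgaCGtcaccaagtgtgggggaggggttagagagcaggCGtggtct
Cdkn1a, upstream start, chr17:29090729-29090978, plus strand: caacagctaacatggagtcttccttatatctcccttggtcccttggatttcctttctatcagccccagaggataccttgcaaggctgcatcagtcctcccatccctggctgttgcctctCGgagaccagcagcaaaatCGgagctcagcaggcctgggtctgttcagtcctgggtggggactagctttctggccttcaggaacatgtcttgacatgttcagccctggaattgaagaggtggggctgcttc
Cdkn1a, main start, chr17:29093519-29093768, plus strand: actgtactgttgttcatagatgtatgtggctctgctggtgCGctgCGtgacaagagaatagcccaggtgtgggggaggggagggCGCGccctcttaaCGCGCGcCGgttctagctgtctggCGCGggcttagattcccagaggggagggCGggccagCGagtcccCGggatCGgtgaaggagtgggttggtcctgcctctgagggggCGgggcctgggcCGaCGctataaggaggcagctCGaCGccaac
The Arf stretch holds 40 CpG and the Cdkn2b stretch 12, against 7 before the Ink4a start. Only 2 CpG lie before the upstream Cdkn1a start, against 19 before the main one.

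The windows in which reads were counted are 400 bp long, on mm10, and centred at or near a transcription start, so levels of different genes need no length correction. The levels were not corrected for the sequence bias of Tn5, for which the study sequenced tagmented genomic DNA, so the order of genes may include it. The Ink4a window of Cdkn2a (transcript NM_001040654, chr4:89281993-89282392), the Arf window (NM_009877, chr4:89294420-89294819) and the Cdkn2b window (NM_007670, chr4:89310833-89311232) lie on the minus strand of 1 locus, with Arf 12.4 kb from Ink4a and Cdkn2b 16.4 kb from Arf. Both Cdkn2a windows cover the start of their own first exon, including 119 coding bases for Ink4a and 104 for Arf. Cdkn2c (NM_007671) is at chr4:109665173-109665572 and Cdkn2d (NM_009878) at chr9:21291010-21291409. The upstream Cdkn1a window (NM_001111099, chr17:29090786-29091185) and the main one (NM_007669, chr17:29093572-29093971) are 2.79 kb apart. Cdkn1b (NM_009875) is at chr6:134920201-134920600, Trp53 (NM_001127233) at chr11:69580159-69580558, Mdm2 (NM_001288586) at chr10:117710559-117710958 and Rb1 (NM_009029) at chr14:73325592-73325991. The Rb1 window holds 50 coding bases, and the other windows outside the Cdkn2a gene hold none.

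By sequence the windows range from CpG islands to CpG-poor DNA. Taking windows as CpG-rich at 50% G+C or more and with a ratio of found to expected CpG from 0.6 upward, 7 of the 11 windows were CpG-rich, beside 54.6% of all promoter windows. Rb1 held 76 CpG and Mdm2 held 56, while Cdkn2c held 12, Trp53 held 14 and the upstream Cdkn1a window held 3, at a CpG ratio of 0.109. The median over all promoters was 24 CpG. The Sp1 box GGGCGG was found on either strand in 9 of 11 windows, beside 56.3% of all windows, and the E2F letters TTTCCCGC in the Arf and Rb1 windows, beside 1.87% of all. The cyclic AMP response element TGACGTCA was in the Cdkn2b window, beside 2.56% of all, and can be read in the printed stretch. The p53 response-element decamer, 1 of the paired units that p53 binds, was in 4 windows, beside 9.17% of all: 2 copies in the upstream Cdkn1a window and 1 each in Cdkn2d, Trp53 and Mdm2. These are matches of letters and not measured binding.

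Across the 26 libraries the promoter windows held 1488370 to 3025358 reads, with a median of 58 to 108 reads per window, and the member windows held 23 to 646 reads. Of the mESC marker promoters 6 of 10 stood above the middle of all promoters by their median percentile, with Zfp42, Sox2 and Tfcp2l1 highest, while Pou5f1 at 48.3, Tdgf1 at 48.0 and both Esrrb windows did not. Fibroblast markers reached at most 46.1, hepatocyte markers at most 13.2, and of 7 primitive endoderm windows 1 (Gata6, 52.4) passed the middle. In reads per 1000000 promoter reads (RPM), the summed mESC marker level was 571 to 671 in untreated libraries of 3 lines and 741 to 822 in untreated Kdm2a-CXXC libraries. The part of that line difference in the line differences of the members was not tested. Between untreated and treated libraries the marker sums did not overlap in 4 cases, among the 4 lists in each of the 4 lines. A rate expected by chance was not computed, and the Pdgfra windows count in both the fibroblast and the primitive endoderm sums. In Kdm2b-CXXC cells the mESC sum was 644 to 666 RPM untreated and 596 to 642 treated, and the fibroblast sum 108 to 117 and 124 to 140. The primitive endoderm sum was at least 169.8 untreated and 148.5 to 169.2 treated with both CXXC domains lost, and the hepatocyte sum 8.26 to 12.5 and 12.8 to 14.2 in Kdm2a-CXXC cells. The part of these shifts in the changes of the members was not tested. With the spike-in calibration the median promoter moved after tamoxifen by -0.21 on the log2 scale in Kdm2a/b-JmjC cells and -0.18 in Kdm2a-CXXC cells, and by 0.099 in the Kdm2b-CXXC line and 0.087 where both CXXC domains were lost, so each change is also given after trimmed-mean (TMM) scaling, which sets that shared shift to about 0 and measures a promoter against the others.

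All 11 promoters held reads in every library, at levels that differed widely. Cdkn2d, encoding p19Ink4d, was the most open member in every line, at the 98.1st to 99.7th percentile of all promoters, with a mean of 325 ± 36.4 (SD, n = 3) calibrated reads in untreated Kdm2a/b-JmjC cells. Cdkn1b, the gene of p27, followed at a median percentile of 90.2, then Trp53 at 85.4, the main Cdkn1a promoter at 80.5, Arf at 79.7, Cdkn2b at 74.0, Mdm2 at 72.8 and Rb1 at 64.0. Ink4a stood at a median percentile of 49.9, the upstream Cdkn1a promoter at 40.2 and Cdkn2c, the gene of p18Ink4c, at 39.4. Arf and Cdkn2b exceeded the median promoter in each of the 26 libraries.

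**Figure D1:**
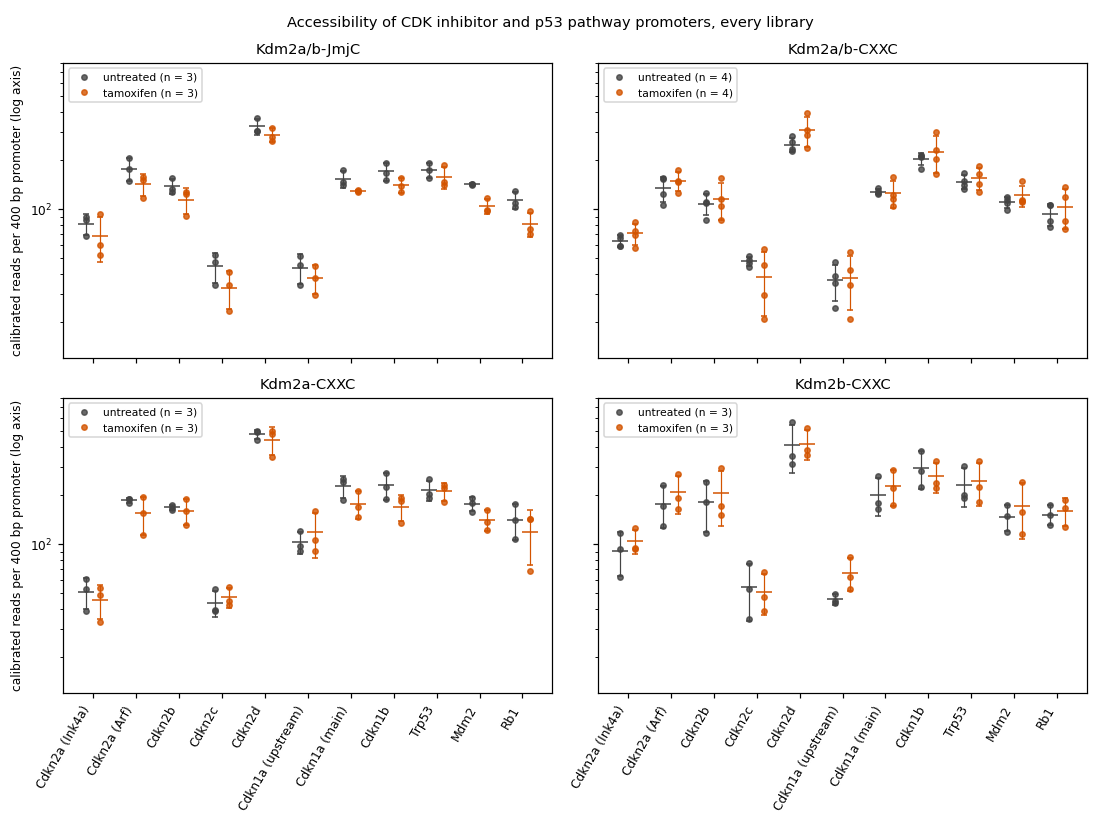
Calibrated reads per 400 bp promoter (log axis) of the 11 promoters in each of the 4 lines, with a point per library and a bar for mean ± SD, untreated in grey and tamoxifen in orange. Cdkn2d is highest in each panel, Cdkn2c and the upstream Cdkn1a promoter are among the lowest, and the upstream Cdkn1a promoter is higher in the Kdm2a-CXXC panel.

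In untreated libraries the order of neighbouring promoters was often within their spread. Cdkn2d did not overlap the next promoter in 3 lines, but in Kdm2b-CXXC cells its range of 314 to 566 calibrated reads overlapped the 224 to 379 of Cdkn1b, although Cdkn2d was higher in 3 of 3 libraries. Arf, Trp53, Cdkn1b and the main Cdkn1a promoter followed each other closely in Kdm2a/b-JmjC cells, at means of 177, 175, 171 and 154, and each of these neighbours overlapped. Rb1 stood above Ink4a without overlap in every line, and the lowest ranks were held by Cdkn2c and the upstream Cdkn1a promoter in 3 lines. In the Kdm2a-CXXC line the upstream Cdkn1a promoter instead stood above Ink4a and Cdkn2c, at 90.8 to 121 calibrated reads against 38.8 to 61.1 and 38.8 to 52.7.

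No member promoter passed the test after tamoxifen in any of the 4 lines. The test was limma on log2(calibrated reads + 1), fitted over all promoters that passed a filter on low reads, with calls at a Benjamini-Hochberg adjusted p below 0.05 and a fold change above 1.4. All 11 members passed that filter in each line. Over all promoters the same rule called 0.0757% in Kdm2a/b-JmjC cells and 0.0% in each of the other lines, so a count of 0 among 11 members is near that background. At an unadjusted p below 0.05, limma gave 3 members in Kdm2a/b-JmjC cells beside 20.6% of all promoters, 0 in Kdm2a/b-CXXC cells beside 4.65%, 1 in Kdm2a-CXXC cells beside 8.39% and 0 in Kdm2b-CXXC cells beside 0.669%. ATAC-seq of a culture cannot tell fewer cells with an open promoter from a less open promoter in each cell.

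**Figure D2:**
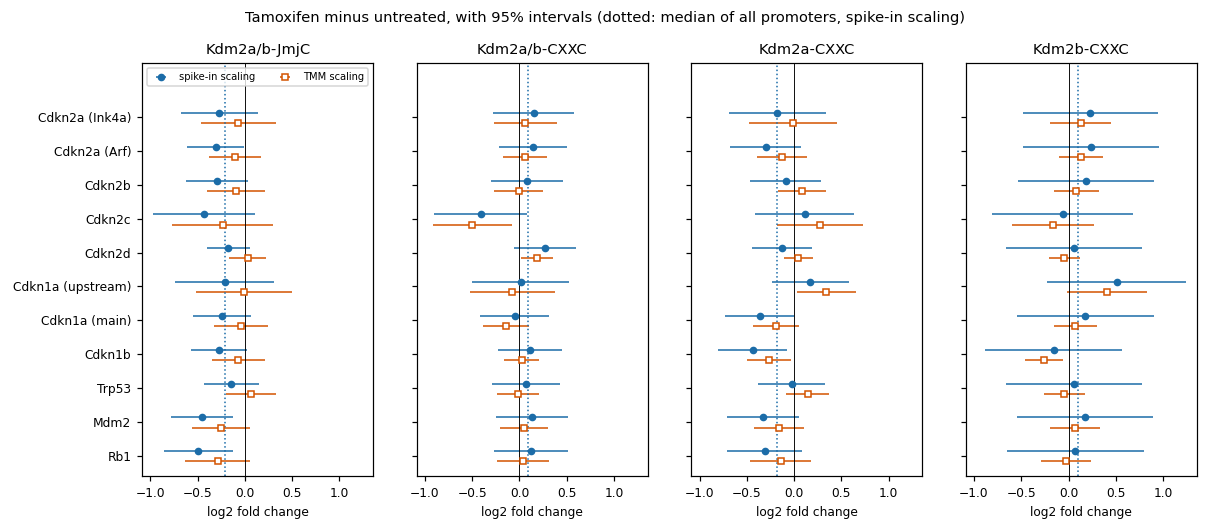
Log2 fold change of each member, tamoxifen minus untreated, in the 4 lines with 95% intervals, with spike-in scaling as filled circles, TMM scaling as open squares, and the median of all promoters under spike-in scaling as a dotted line. Under spike-in scaling the 11 values lie left of 0 in Kdm2a/b-JmjC cells, from -0.49 to -0.15, and TMM scaling moves them toward 0.

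Among the INK4 genes, the Ink4a promoter held 85.8, 68.0 and 89.8 calibrated reads in the untreated Kdm2a/b-JmjC libraries and 92.9, 52.5 and 60.4 after tamoxifen, and these ranges overlapped. Its log2 fold change was -0.27 ± 0.21 (SE), with a 95% interval of -0.68 to 0.13 and an adjusted p of 0.44 (limma). In the Kdm2b-CXXC line it held 118, 62.3 and 93.9 calibrated reads untreated and 125, 94.6 and 93.9 treated, a log2 fold change of 0.23 with an interval of -0.48 to 0.94. The values were -0.18 in Kdm2a-CXXC and 0.15 in Kdm2a/b-CXXC cells. In each line the Ink4a value with spike-in scaling had the sign of the median of all promoters and did not exceed the replicate spread. Under TMM scaling Ink4a was -0.070 in Kdm2a/b-JmjC, 0.13 in Kdm2b-CXXC, -0.011 in Kdm2a-CXXC and 0.062 in Kdm2a/b-CXXC cells.

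The Arf promoter held 149, 177 and 206 calibrated reads in untreated Kdm2a/b-JmjC cells and 159, 117 and 152.5 after tamoxifen, with the ranges overlapping. It was 1 of the 3 members at an unadjusted limma p below 0.05 there, with a log2 fold change of -0.31 ± 0.15 (SE) at an adjusted p of 0.22, and of -0.11 under TMM scaling at an adjusted p of 0.96. Its log2 fold changes were 0.24 in the Kdm2b-CXXC line, -0.30 in the Kdm2a-CXXC line and 0.15 in the Kdm2a/b-CXXC line, none below an unadjusted p of 0.05. Cdkn2b, which lies next to Arf and encodes p15Ink4b, held 128, 134 and 157 calibrated reads untreated and 127, 90.8 and 125 treated in Kdm2a/b-JmjC cells. The treated libraries were all below the untreated ones, the nearest by less than 1 read, and limma gave a log2 fold change of -0.30 with an adjusted p of 0.29. Under TMM scaling the Cdkn2b value there was -0.092.

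Cdkn2c and Cdkn2d lie outside that locus. Cdkn2c held 51.4, 43.8, 48.7 and 46.5 calibrated reads in untreated Kdm2a/b-CXXC cells and 45.0, 56.9, 29.3 and 20.9 after tamoxifen. The treated libraries reached both higher and lower than the untreated ones, with a log2 fold change of -0.41 (interval -0.90 to 0.078) and of -0.50 under TMM scaling, at an unadjusted p below 0.05 and an adjusted limma p of 0.41. Cdkn2c was -0.44 in Kdm2a/b-JmjC cells, 0.11 in Kdm2a-CXXC and -0.064 in Kdm2b-CXXC, each with an interval that spanned 0. Cdkn2d held 259, 234, 283 and 227.5 calibrated reads in untreated and 394, 308, 287.5 and 238 in treated Kdm2a/b-CXXC cells, overlapping, at a log2 fold change of 0.27 with an adjusted p of 1.00 (limma). Under TMM scaling Cdkn2d was 0.19 in that line, below 0.05 without adjustment and at an adjusted limma p of 0.46. In the other lines its log2 fold change lay between -0.18 and 0.057 with the spike-in.

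**Figure D3:**
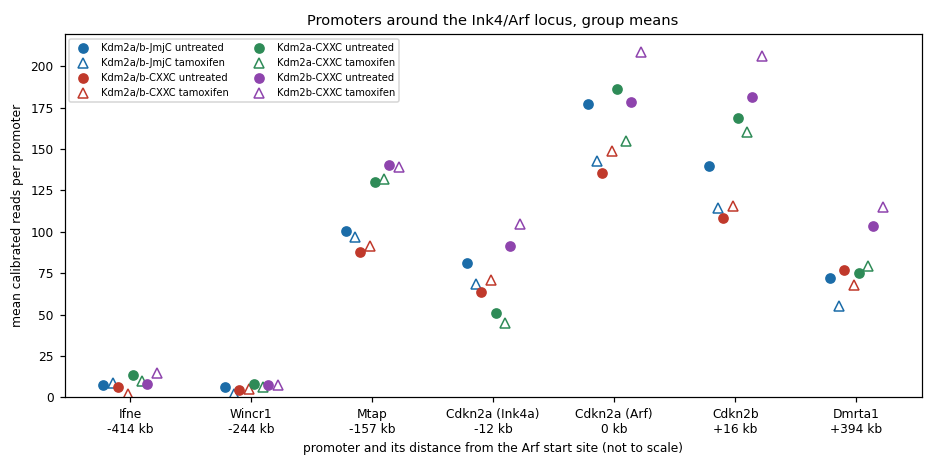
Mean calibrated reads of each group at the 7 promoters within 500 kb of the Ink4/Arf/Ink4b windows, ordered along the chromosome with the distance from the Arf start. Arf and Cdkn2b are the highest, and Ink4a lies between them and the low Ifne and Wincr1 promoters. At Arf the treated (open) and untreated (filled) means are 143 and 177 in Kdm2a/b-JmjC cells and 155 and 186.5 in Kdm2a-CXXC cells. They are 209 and 178 in Kdm2b-CXXC cells and 149 and 135 in the Kdm2a/b-CXXC line.

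The neighbourhood of the locus held 4 further promoter windows within 500 kb. Mtap, which encodes the methionine salvage enzyme methylthioadenosine phosphorylase and lies 157 kb from Arf, had a median percentile of 65.1, and Dmrta1, 394 kb away on the other side, had 52.4. Ifne and the noncoding Wincr1 had 15.2 and 8.29. Ink4a at 49.9 was therefore nearer in level to Dmrta1 than to Arf, and its window holds 23 CpG against 47 in the Arf window.

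Of the CIP/KIP genes, Cdkn1b held 190, 227 and 276 calibrated reads in untreated Kdm2a-CXXC cells and 135, 185 and 192 after tamoxifen. The highest treated library stood just above the lowest untreated one. The log2 fold change was -0.44 ± 0.19, the lowest of the members in that line at an adjusted limma p of 0.58, and -0.26 under TMM scaling at an adjusted p of 0.76, both below 0.05 without adjustment. In Kdm2b-CXXC cells Cdkn1b held 379, 224.5 and 285 calibrated reads untreated and 326, 224 and 240 treated, with a log2 fold change of -0.16 that became -0.26 under TMM scaling, below 0.05 without adjustment and at an adjusted limma p of 0.49. In the Kdm2a/b-CXXC line, where both genes lose the domain, it was 0.11 and 0.021 by the 2 scalings, and the difference between these lines was not tested because each line was calibrated in its own table.

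Cdkn1a, the gene of p21 and a direct p53 target, has its main promoter at a CpG-rich window. There the untreated Kdm2a/b-JmjC libraries held 147, 176 and 140 calibrated reads and the treated ones 128, 131.5 and 129. The treated values were all lower and close to each other, with a log2 fold change of -0.24 and an adjusted limma p of 0.36, and of -0.039 under TMM scaling. It was -0.36 in Kdm2a-CXXC cells (adjusted limma p of 0.59), 0.18 in the Kdm2b-CXXC line and -0.052 in the Kdm2a/b-CXXC line. In that last line its share of the library's promoter reads was nevertheless lower in all treated libraries, at 72.8 to 79.2 RPM against 80.8 to 88.2, with a log2 fold change of -0.14 under TMM scaling and an adjusted limma p of 0.76. The CpG-poor upstream window held 49.6, 44.6 and 43.0 calibrated reads in untreated Kdm2b-CXXC cells and 83.6, 63.1 and 53.1 after tamoxifen, so that all treated libraries were above all untreated ones. This was the largest log2 fold change among the members, 0.51 with an interval of -0.23 to 1.25 and an adjusted limma p of 1.00, and 0.41 under TMM scaling with an adjusted p of 0.66.

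Over the 4 lines, the log2 fold changes of Trp53 spanned the narrowest range of the members. Its log2 fold change was -0.15 in Kdm2a/b-JmjC cells, -0.026 with Kdm2a-CXXC lost, 0.068 with both CXXC domains lost, and 0.059 in Kdm2b-CXXC cells, and the 95% intervals in the first 3 of these lines stayed between -0.44 and 0.43. In Kdm2a/b-JmjC cells its untreated libraries held 174, 193 and 157 calibrated reads and the treated ones 187, 147 and 141, which overlapped.

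Mdm2 and Rb1 gave the lowest unadjusted p values of the members. Mdm2 held 143, 140.5 and 144 calibrated reads in untreated Kdm2a/b-JmjC cells and 97.2, 98.7 and 117 after tamoxifen, a mean of 143 ± 1.83 (SD, n = 3) against 104 ± 10.8. The 2 groups did not overlap in calibrated reads, but did in RPM, with a log2 fold change of -0.45 ± 0.17 and an adjusted limma p of 0.12. Rb1, which encodes the pocket protein that the INK4 inhibitors keep active, held 103, 110 and 130 calibrated reads untreated and 97.2, 76.0 and 70.6 treated in that line, again with overlap in RPM only, at a log2 fold change of -0.49 ± 0.18 and an adjusted limma p of 0.13. Under TMM scaling Mdm2 was -0.25 and Rb1 -0.29, both at an adjusted limma p of 0.88. In Kdm2a-CXXC cells both were lower by a similar amount, -0.33 for Mdm2 and -0.31 for Rb1, with intervals that included 0, and in the Kdm2a/b-CXXC and Kdm2b-CXXC lines both lay between 0.073 and 0.17. Under TMM scaling the Kdm2a-CXXC values were -0.16 for Mdm2 and -0.14 for Rb1.

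Read as a group, the members followed the shift of all promoters. In Kdm2a/b-JmjC cells 11 of 11 log2 fold changes were below 0, beside 83.4% of all promoters, with a median of -0.27 against -0.21 for all. In Kdm2a-CXXC cells 9 of 11 were below 0, beside 81.2%, with a median of -0.18 against -0.18. The direction was the other in the remaining lines, where 2 of 11 were below 0 in Kdm2a/b-CXXC cells, beside 32.0%, and 2 of 11 in Kdm2b-CXXC cells, beside 28.9%, at medians of 0.11 and 0.17 against 0.087 and 0.099. After TMM scaling the members split 9 below and 2 above 0 in Kdm2a/b-JmjC cells, 6 and 5 in Kdm2a-CXXC cells, and 5 and 6 in both other lines. Under that scaling no member of the Kdm2a/b-JmjC line had an unadjusted p below 0.05, beside 5.63% of all promoters. The count was 1 in Kdm2b-CXXC cells (Cdkn1b) beside 7.79%, 2 in Kdm2a-CXXC cells (Cdkn1b and the upstream Cdkn1a promoter, at 0.34) beside 6.2%, and 2 in the Kdm2a/b-CXXC line (Cdkn2c and Cdkn2d) beside 9.64%.

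Groups of libraries that did not overlap were counted next, first in calibrated reads. All treated libraries were below all untreated ones for 4 members in Kdm2a/b-JmjC cells, namely Cdkn2b, the main Cdkn1a promoter, Mdm2 and Rb1, beside 23.2% of all promoters, and above for 0, beside 0.908%. In Kdm2a/b-CXXC cells no member was separated either way, beside 0.597% below and 1.8% above, and in Kdm2a-CXXC cells none was, beside 13.4% and 1.12%. In Kdm2b-CXXC cells 0 were separated below, beside 0.446%, and the upstream Cdkn1a promoter was separated above, beside 2.13%. Counted in RPM instead, an alternative chosen after seeing the data, different members were separated. None of the 4 promoters of the Kdm2a/b-JmjC line was, beside 5.3% of all promoters below and 5.51% above. With both CXXC domains lost the main Cdkn1a promoter was separated below, beside 2.73%, and 0 members above, beside 2.2%. In the Kdm2a-CXXC line 0 were below, beside 5.41%, and the upstream Cdkn1a promoter and Cdkn2c, at 21.8 to 23.8 RPM against 16.9 to 21.0 untreated, were above, beside 5.77%. In Kdm2b-CXXC cells Cdkn1b was below, at 102 to 114 RPM against 128 to 135 and beside 6.1%, and Arf was above, at 83.1 to 91.1 against 73.8 to 81.8 and beside 6.32%. With spike-in scaling the intervals limit what could be seen. The distance from the estimate to the end of the interval had a median of 0.72 on the log2 scale over the members in Kdm2b-CXXC cells, against 0.33 to 0.38 in the other lines. Under TMM scaling every member interval of Kdm2b-CXXC cells was narrower. That of Ink4a was -0.20 to 0.45 against -0.48 to 0.94 with the spike-in, and that of Arf -0.10 to 0.37 against -0.49 to 0.96.

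At 2 members the libraries of 1 line stood apart from those of the others. These levels are given in RPM, which do not use the spike-in, and as a description, because line, clone and table cannot be told apart. The upstream Cdkn1a promoter held 42.3 to 48.1 in untreated and 51.6 to 68.7 in treated Kdm2a-CXXC libraries, against 15.7 to 31.8 over the 20 libraries of the other lines. Ink4a showed the reverse, with 16.9 to 28.7 in untreated and 16.1 to 27.8 in treated Kdm2a-CXXC libraries against 35.3 to 55.0 elsewhere. Each was thus outside the range of the other lines in all 6 libraries, treated and untreated alike.

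**Figure D4:**
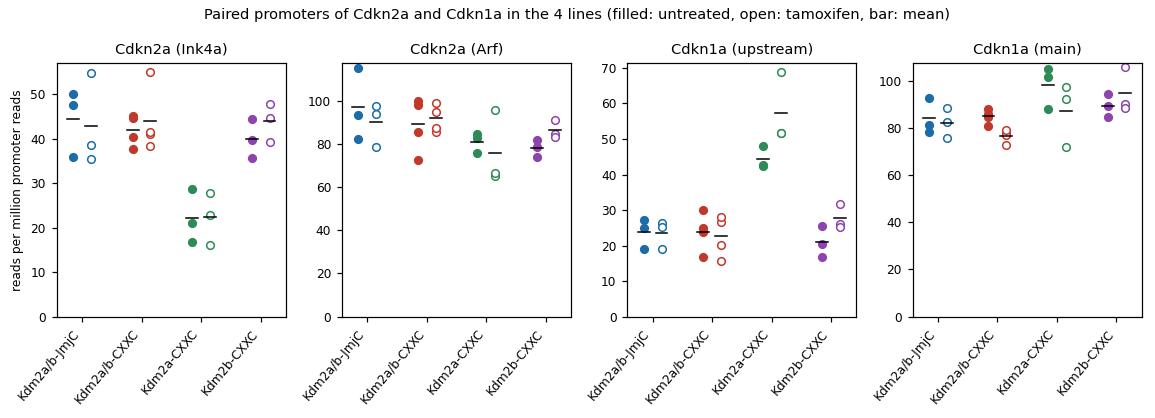
Reads per 1000000 promoter reads (RPM) at both Cdkn2a and both Cdkn1a promoters by line, filled for untreated, open for tamoxifen, with a bar at the group mean. Kdm2a-CXXC libraries lie below the other lines at Ink4a and above them at the upstream Cdkn1a promoter, while Arf and the main Cdkn1a promoter overlap between lines.

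Of 16030 promoters that passed the filter in every line, 1.89% stood above and 1.13% below all libraries of the other lines in Kdm2a-CXXC cells, so the 1 member above and 1 below are each a single case in a share of that size. No other member was separated in this way. The corresponding shares were 0.0125% above and 0.0% below in Kdm2b-CXXC cells, 0.643% and 0.0312% in the Kdm2a/b-CXXC line and 1.2% and 0.131% in Kdm2a/b-JmjC cells, with 0 members in each. The medians of all tested promoters on chromosomes 4 and 17 were -0.087 and -0.022 on the log2 scale in untreated Kdm2a-CXXC cells relative to the mean of the other lines, whereas Ink4a was -0.89 and the upstream Cdkn1a promoter 0.93. The neighbouring Arf promoter was -0.12 and the main Cdkn1a promoter 0.19 by that measure, so the partner promoter of each gene lay much nearer to the other lines.

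The ratio of the 2 promoters of a gene within a library, taken on calibrated reads + 1, depends on the scaling only through that added 1. It was examined after the values had been seen. Arf exceeded Ink4a in every library, by a mean log2 ratio of 1.11 ± 0.30 (SD, n = 3) in untreated Kdm2a/b-JmjC cells, 0.96 ± 0.083 (n = 3) in Kdm2b-CXXC cells, 1.88 ± 0.37 (n = 3) in Kdm2a-CXXC cells and 1.07 ± 0.29 (n = 4) in the Kdm2a/b-CXXC line. In that order of lines it differed after tamoxifen by -0.038, 0.0092, -0.12 and -0.0033, none beyond the spread (two-sided exact permutation p = 0.70, 1, 0.70 and 0.94). The main Cdkn1a promoter exceeded the upstream one by a log2 ratio of 1.14 ± 0.14 in untreated and 0.60 ± 0.27 in treated Kdm2a-CXXC cells, a difference of -0.53 without overlap. Its exact permutation p of 0.10 is the smallest that 3 against 3 libraries allow, and 0.80 after adjustment over the 8 such tests. In Kdm2b-CXXC cells the difference was -0.33 (exact permutation p = 0.30), and in the Kdm2a/b-JmjC and Kdm2a/b-CXXC lines it was -0.028 and -0.063 (exact permutation p = 1 and 0.86).

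The other genes of the RB and p53 pathways were read from 5 lists with 66 genes. These had 71 promoter windows of 64 genes, and 69 windows passed the filter in each line, while Cdk6 and Mdm4 were not analysed here. None was called in any line by limma. At an unadjusted limma p below 0.05, 15 of 69 were lower and 0 higher in Kdm2a/b-JmjC cells, 8 lower and 0 higher in Kdm2a-CXXC cells, and 0 in the Kdm2a/b-CXXC and Kdm2b-CXXC lines, which again can be read against the 20.6%, 8.39%, 4.65% and 0.669% of all promoters. The medians of the 69 were -0.18, -0.17, 0.11 and 0.093 in that order of lines, beside -0.21, -0.18, 0.087 and 0.099 for all promoters.

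**Figure D5:**
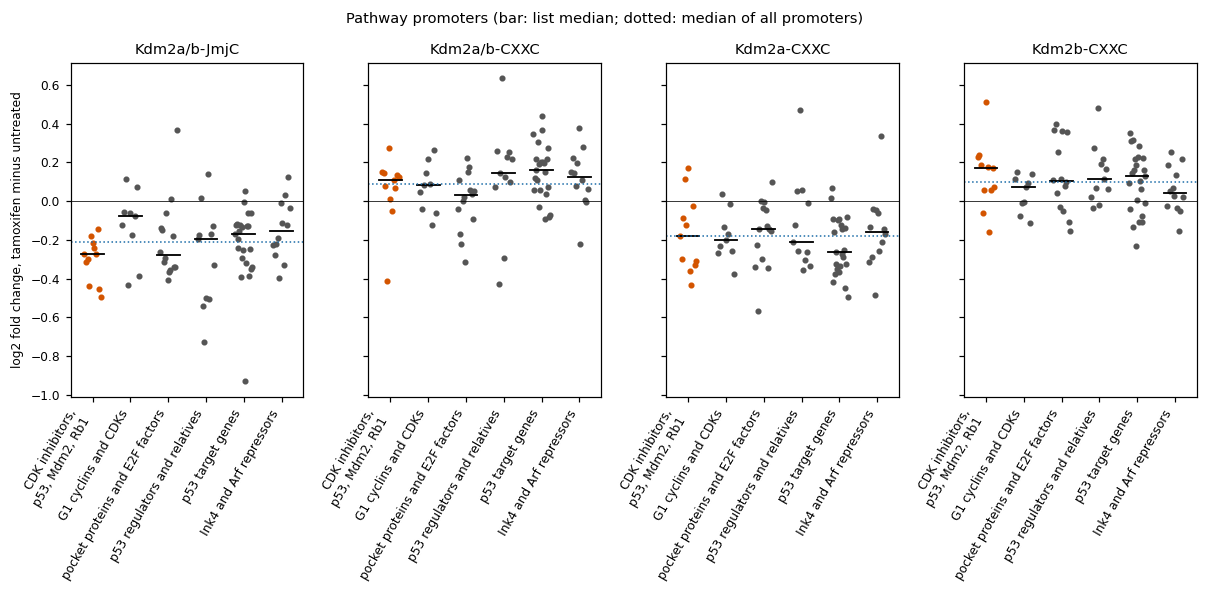
Log2 fold change, tamoxifen minus untreated, of the 11 members (orange) and of the promoters in the 5 pathway lists (grey) in each line, with a bar at each list's median and a dotted line at the median of all promoters. The lists scatter around the dotted line in each panel.

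By list, 22 of 23 tested promoters of p53 target genes were below 0 in Kdm2a/b-JmjC cells, beside 83.4% of all promoters, with a median of -0.17 that was 0.036 under TMM scaling, and 5 had an unadjusted p below 0.05. Gadd45a, a growth arrest gene, had the lowest p of these, with 297 ± 28.2 calibrated reads untreated and 226 ± 12 treated (SD, n = 3, log2 fold change -0.39, limma adjusted p = 0.086). Among the 11 tested promoters of p53 regulators and relatives, 2 had an unadjusted p below 0.05. The window of Trp53bp1 (NM_001290830, chr2:121271208-121271607), whose product acts at DNA breaks, held 193 ± 3.14 untreated and 133 ± 4.52 treated calibrated reads, a log2 fold change of -0.54 ± 0.15 that had the lowest adjusted p of all lists, 0.061 (limma), and was -0.34 under TMM scaling. The pocket protein and E2F list had 3 of 14 at an unadjusted p below 0.05, led by E2f8 at -0.35, the G1 cyclin and CDK list 2 of 9, led by Ccne1 (cyclin E1) at -0.39, and the list of Ink4 and Arf repressors, mostly Polycomb subunits, 3 of 12, led by a window of Kdm2b itself at -0.33. That Kdm2b window was -0.125 under TMM scaling, and the other tested Kdm2b window was 0.029 with the spike-in scaling. These list counts stand beside 20.6% of all promoters in that line. Under TMM scaling they were 2 for p53 targets, 2 for p53 regulators, 1 for pocket proteins and E2F factors, 0 for G1 cyclins and CDKs and 1 for the repressors, beside 5.63% of all. Gadd45a was then -0.18, E2f8 -0.15 and Ccne1 -0.18.

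In Kdm2a-CXXC cells the promoter with the lowest p in each list was E2f3 (log2 fold change -0.57, limma adjusted p = 0.58), the p53 target Bbc3 at -0.45, the PRC1 ligase gene Ring1 at -0.48, the checkpoint kinase gene Chek2 at -0.36 or Ccne1 at -0.37. In Kdm2a/b-CXXC cells those of the 5 lists were Kdm2a (0.38), Pmaip1 (0.37), Trp73 (0.63), E2f2 (-0.31) and Ccnd1 (0.26), each at an adjusted limma p of 0.996. This Trp73 window (NM_001126330) rested on only 11.2 ± 3.62 calibrated reads untreated and 18.4 ± 8.67 treated (n = 4). The other tested windows of Trp73 and E2f2 had the opposite sign, at -0.29 and 0.22. For Kdm2b-CXXC cells those of the 5 lists were E2f3 (0.40), Perp (0.35), Trp73 (0.48), Cbx7 (0.26) and Cdk2 (0.15), each with an adjusted p of 1.00 (limma). The other tested Trp73 window was at -0.021 there. E2f3 was thus lowest in p within its list in 2 lines, with opposite signs, and neither value passed the test. Under TMM scaling the Kdm2a-CXXC values were -0.40 for E2f3, -0.28 for Bbc3, -0.31 for Ring1, -0.19 for Chek2 and -0.20 for Ccne1.

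Over the 26 libraries, after centring on each line, the members did not share 1 pattern. The 55 pairs of members had a median Pearson correlation of -0.049, from -0.45 to 0.54, and the highest was between Cdkn1b and Rb1. The most similar of 16019 other promoters reached 0.74 for Arf (Fras1 and A530072M11Rik), 0.68 for Ink4a (Sec61a2), 0.68 for Cdkn2b (Myh3), 0.75 for Mdm2 (Ttc16), 0.74 for the main Cdkn1a promoter (Cenpv), 0.71 for the upstream one (Gpatch8), 0.74 for Cdkn1b (Ldlrad3), 0.72 for Trp53 (Crym), 0.72 for Rb1 (Rnf114), 0.71 for Cdkn2c (Hcn2) and 0.69 for Cdkn2d (Sdccag8). All points share a library's depth and normalisation, and the values are the highest of many, so they are descriptions of likeness only.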

How the data were processed

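The deposited tables hold 1 row per promoter of a non-redundant mouse gene set and 1 column per ATAC-seq library. Per the study's methods, the authors aligned read pairs to mm10 and dm6 with Bowtie 2, removed multiply mapped reads and PCR duplicates with SAMtools, counted reads per promoter, and divided them by size factors from Drosophila reads corrected by matched input DNA. The deposited signal is therefore calibrated reads. The columns of fold changes and p-values were not used.

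The factors (0.718 to 1.41) were estimated from the spacing of the low values in each column and refined over all its values. Multiplying the values by them gave whole reads for 100% of values (within 0.1), which is not an independent check of the factors. Of values of 1 to 6 reads, 57.8% to 62.9% were even. RefSeq symbols matched 20450 rows (99.1%). The signal was tested as log2(calibrated reads + 1) in limma 3.58.1 (trend) after the filterByExpr filter of edgeR 4.0.16, each line alone, in R 4.3.3, with adjustment over all promoters tested. Intervals are 95%. The ratio test used SciPy 1.17.1. Alternatives were TMM and median-of-ratios scaling, pseudocounts of 0.5 and 5, no filter, edgeR and DESeq2 1.42.0 on the reads, a replicate block and leaving out each library. The limma step was tested on simulated data. The planted changes were larger than that of any member and no promoter varied more than the median one, so the test does not measure power for the members. Replicate numbers were not taken as pairs in the main fit, and a replicate block was an alternative. After centring within each group, same-numbered libraries correlated over promoters at -0.009 to 0.0725. In Kdm2a/b-JmjC cells these were 0.0426 to 0.0725, against -0.0584 to 0.00201 for unlike numbers. Such a correlation cannot show an offset shared by whole libraries, so it does not settle whether the numbers mark pairs. In Kdm2b-CXXC cells replicate 1 had the highest calibrated reads of both the untreated and the treated group at every member window. Whether such whole-library offsets go with the replicate number was not tested, and the main fit does not remove them. Every member window is named. Of each pathway list the promoters past both thresholds were to be named, or else the 1 with the lowest p. For each member the 2 promoters most alike were listed, of which the nearest is given. The mESC, fibroblast, primitive endoderm and hepatocyte lists served as marker checks. The members and lists were chosen with earlier results of these data known. Of the 52 samples 26 were input DNA and were not analysed here.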

Additional observations from a re-analysis of the deposited data

Results flagged for a closer look

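Of the 4 tamoxifen libraries of the Kdm2a/b-CXXC line, replicate 1 held 148.6 calibrated reads at the Mdm2 promoter and the other 3 held 111.5 to 113.5. Its gap to the nearest library was 0.948 of the whole range, above Dixon's 95% critical value for 4 samples. This was 1 of 22 groups of 4 examined over the members, and chance flags about 1 in 20 such groups. In RPM its value of 73.0 lay within the 67.3 to 84.0 of the other 3. The log2 fold change of Mdm2 in that line was 0.13 with all libraries.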

How the results depend on the processing

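No member promoter was called under any of the 14 to 16 alternatives in each line. Of the 44 member results (11 promoters in 4 lines), 11 changed sign under TMM and the same number under median-of-ratios scaling, 0 under the pseudocounts, the absence of a filter, edgeR, DESeq2 or the replicate block. By the TMM and median-of-ratios scalings respectively, the signs turned in Kdm2a/b-JmjC cells for Cdkn2d (0.028 and 0.030) and Trp53 (0.060 and 0.062), in Kdm2b-CXXC cells for Cdkn2d (-0.046 and -0.049), Trp53 (-0.044 and -0.047) and Rb1 (-0.029 and -0.032), in Kdm2a-CXXC cells for Cdkn2b (0.081 and 0.086), Cdkn2d (0.046 and 0.051) and Trp53 (0.14 and 0.15) and in Kdm2a/b-CXXC cells for Cdkn2b (-0.010 and -0.012), upstream Cdkn1a (-0.075 and -0.076) and Trp53 (-0.019 and -0.020). These scalings remove the shared shift of all promoters by construction. Leaving out 1 library turned the sign of 21 results, 15 of them without tamoxifen replicate 1, with log2 fold changes in Kdm2b-CXXC cells for Ink4a (-0.020 to 0.43), Cdkn2b (-0.10 to 0.43), Cdkn2c (-0.35 to 0.21), Cdkn2d (-0.11 to 0.31), main Cdkn1a (-0.0042 to 0.38), Cdkn1b (-0.34 to 0.037), Trp53 (-0.17 to 0.27), Mdm2 (-0.11 to 0.43) and Rb1 (-0.047 to 0.23), in Kdm2a-CXXC cells for Ink4a (-0.36 to 0.027), Cdkn2b (-0.22 to 0.045), Cdkn2d (-0.23 to 0.046), upstream Cdkn1a (-0.063 to 0.34), Trp53 (-0.10 to 0.086) and Rb1 (-0.50 to 0.046) and in Kdm2a/b-CXXC cells for Cdkn2b (-0.079 to 0.21), upstream Cdkn1a (-0.18 to 0.26), main Cdkn1a (-0.17 to 0.026), Cdkn1b (-0.043 to 0.25), Trp53 (-0.021 to 0.16) and Rb1 (-0.019 to 0.26). The change in the within-library log2 ratio also turned, for Arf over Ink4a in Kdm2a/b-JmjC cells (-0.20 to 0.12), in Kdm2b-CXXC cells (-0.056 to 0.099), in Kdm2a-CXXC cells (-0.51 to 0.15) and in Kdm2a/b-CXXC cells (-0.13 to 0.10), and for main over upstream Cdkn1a in Kdm2a/b-JmjC cells (-0.18 to 0.12) and in Kdm2a/b-CXXC cells (-0.23 to 0.089). With a pseudocount of 5 that of Arf over Ink4a in Kdm2a/b-CXXC cells was 0.00028. These ratios were chosen after seeing the data.

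Among the other pathway promoters 1 was called in place of 0 in 3 cases, the causes of which were not tested: Trp53bp1 in Kdm2a/b-JmjC cells with edgeR (log2 fold change -0.54, adjusted p = 0.048) and without tamoxifen replicate 1 (-0.57, adjusted p = 0.028 in limma, range over libraries left out 0 to 1 call), and E2f3 in Kdm2a-CXXC cells with the replicate block (-0.57, adjusted p = 0.047). Over all promoters of the Kdm2a/b-JmjC line edgeR called 114, all lower, against 13 in the main fit, and limma with TMM scaling called 0. With the replicate block Cdkn1b in Kdm2a-CXXC cells had an adjusted p of 0.047 but stayed under the fold threshold, and the block changed no other call of a member or pathway promoter. Without tamoxifen replicate 1, Rb1 in Kdm2a/b-JmjC cells had a log2 fold change of -0.63 and an adjusted p of 0.050, just above the threshold, and calls over all promoters there rose from 13 to 607. With the replicate block, calls over all promoters rose from 0 to 188 in Kdm2a-CXXC cells and from 13 to 62 in Kdm2a/b-JmjC cells. They rose from 0 to 5 in Kdm2b-CXXC cells and stayed at 0 in the Kdm2a/b-CXXC line. In Kdm2a-CXXC cells the block put 5 members below the unadjusted threshold of 0.05, against 1 without it. Apaf1 (-0.38) and Bbc3 (-0.45) passed only the adjusted threshold there. These counts thus depend on whether replicate numbers mark pairs. Members with few reads, such as Cdkn2c and the upstream Cdkn1a promoter, have the widest intervals in 3 of the lines, and a count of 0 calls does not show that accessibility was the same.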
